A study of Phaseolus vulgaris with 4 samples.

Results

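The genes described here were present at a moderate level in the embryo proper of globular-stage common bean embryos (Phaseolus vulgaris, cultivar G19833). In the suspensor libraries they were near 0 or not listed. They were chosen by their values: at least 5 and under 50 RPKM in both embryo proper libraries, and under 0.5 RPKM in both suspensor libraries. A gene not listed in a library was taken to have no read there, which was not tested. RPKM is a read number divided by gene length and by the read total of the library, which scales levels for these factors only. The rule found 241 genes, 1.15% of the 20961 genes listed in any library and 4.14% of the 5823 genes at 5 to 50 RPKM in both embryo proper libraries. The other 5582 genes of that level serve below as the background. The study holds 4 libraries, 2 of each region, and both regions came from plants of the same cultivar with no mutation or treatment named. The seeds were 1.6 to 2.0 mm long and were taken at 6 days after pollination, and each region was cut by laser from paraffin sections 6 microns thick. The labels call the 2 libraries of a region biological replicates, without giving the embryos or plants behind each. No other seed tissue was analysed here, so "outside the embryo proper" means the suspensor only.

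An early bean embryo has a pair of regions. The embryo proper goes on to form the embryonic axis and the cotyledons. The suspensor is a stalk, large in beans, that anchors the embryo proper in the seed, passes nutrients and hormones to it, and degenerates later in development. Genes with unequal levels in the regions are therefore of interest for how the regions take on different roles.

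The deposited tables name genes by ID alone. None of the IDs (0 of 20961) was found in the RefSeq gene table, so the genes are given by their IDs, with no function. For the same reason the captured regions could not be checked against marker genes. The libraries held between 55135334 and 73408617 reads by totals worked out from the steps of the RPKM values, and listed 18120 to 18867 genes each. Read numbers and gene lengths below were worked out in the same way. Both can be too low for a gene whose read numbers have a common divisor.

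The 241 genes filled the whole range that the rule allowed in embryo proper, with most in its lower part. In embryo proper replicate 1 their levels ran from 5.03 to 49.8 RPKM with a median of 13.2, and in replicate 2 from 5.02 to 48.1 RPKM with a median of 13.2. The mean of both libraries was 13.95 RPKM at the median gene, between quartiles of 9.43 and 20.9 RPKM. Together they made up 0.555% and 0.582% of the summed RPKM of the embryo proper libraries. A median of 1425 and 1732 reads per gene stood behind these levels, and no gene had fewer than 78 reads in either embryo proper library. The levels in embryo proper thus rested on at least 78 reads per library for each of the 241 genes. Reads from amplified RNA are not independent molecules, so read number alone does not give the precision of a level.

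The suspensor libraries differed from each other in these genes. In suspensor replicate 1 the median was 0, the upper quartile 0.124 RPKM and the highest value 0.496 RPKM. In suspensor replicate 2 the lowest value was 0.0421 RPKM, the median 0.210 RPKM and the highest 0.495 RPKM. Of the 241 genes, 127 had no read in replicate 1, whereas 0 had no read in replicate 2. Over all 20961 genes listed in any library, replicate 1 listed slightly more genes, 18515 against 18314 in replicate 2. The level was higher in replicate 2 for 197 genes and higher in replicate 1 for 44. In bulk samples such as these, fewer cells of a type and less RNA per cell cannot be told apart.

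**Figure D1:**
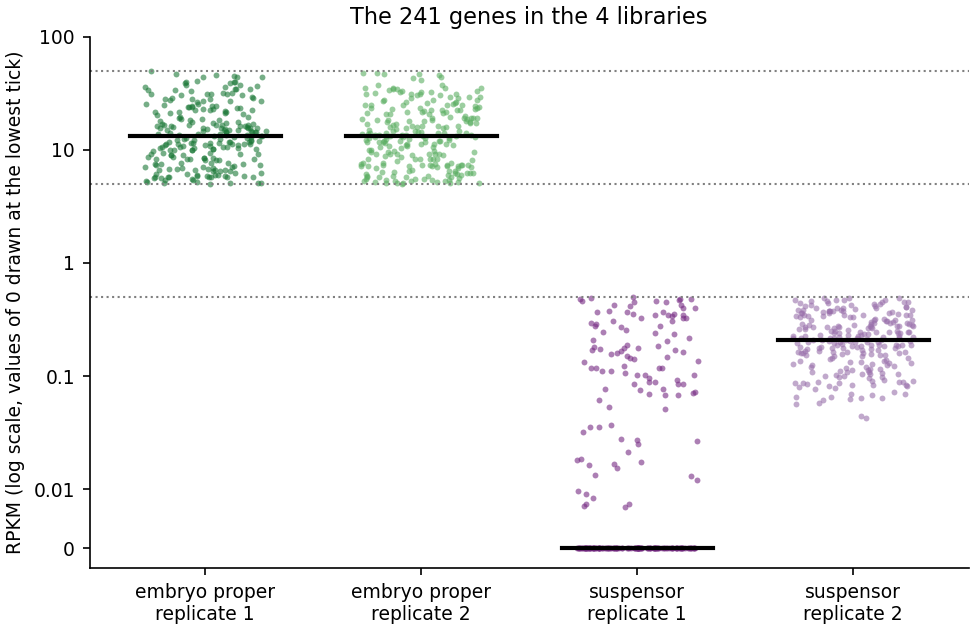
RPKM of each of the 241 genes (points) in the 4 libraries, on a log scale with values of 0 drawn at the lowest tick; black bars are medians and dotted lines the limits of the rule at 0.5, 5 and 50 RPKM. The medians are 13.2 and 13.2 RPKM in embryo proper, 0 in suspensor replicate 1 and 0.210 RPKM in suspensor replicate 2, where no gene lies at 0.

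The gene with the highest mean in embryo proper was Phvul.001G124100 on chromosome 1. It had 45.9 and 43.1 RPKM in embryo proper replicates 1 and 2, and 0.00713 and 0.448 RPKM in suspensor replicates 1 and 2. The embryo proper libraries were close to each other, while the suspensor libraries differed widely: replicate 1 held 1 read of the gene and replicate 2 held 61. Its embryo proper mean of 44.5 ± 2.01 RPKM (SD, n = 2) was 99.2-fold the level in suspensor replicate 2. Against the single read in suspensor replicate 1 the ratio was 6234, with an exact 95% Poisson interval from 1119 to 246221. Such intervals cover counting error only.

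Phvul.001G238500, also on chromosome 1, gave the same picture, with 43.9 and 35.4 RPKM in embryo proper and 0.00694 and 0.472 RPKM in suspensor. It too had 1 read in suspensor replicate 1, against 66 in replicate 2. Phvul.008G007200 on chromosome 8 had 49.8 and 34.5 RPKM in embryo proper, 0 in suspensor replicate 1 and 0.470 RPKM in suspensor replicate 2. Its recovered length of 463 bp was short, so that only 12 reads stood behind the value in replicate 2, and 3 reads in replicate 1 would have been 0.114 RPKM. The embryo proper mean was thus at least 369-fold higher than suspensor replicate 1, by the limit that a count of 0 allows in that library, and 89.6-fold higher than suspensor replicate 2.

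Phvul.007G073600 on chromosome 7 was higher in embryo proper replicate 2 than in replicate 1, at 48.1 and 31.2 RPKM. It had no read in suspensor replicate 1 and 0.495 RPKM, or 31 reads, in replicate 2, the highest value of any of the 241 genes in that library. Phvul.006G057200 on chromosome 6 had 39.6 and 33.0 RPKM in embryo proper, no read in suspensor replicate 1 and 22 reads in replicate 2. Phvul.001G098200 had 40.2 and 30.8 RPKM in embryo proper and 2 and 30 reads in suspensor. In each of these genes suspensor replicate 1 was near or at 0 and replicate 2 was close to the limit of 0.5 RPKM.

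Among the 8 highest genes, suspensor replicate 1 came nearer to replicate 2 in the remaining pair. Phvul.010G124400 on chromosome 10 had 35.9 and 41.4 RPKM in embryo proper and 0.119 and 0.398 RPKM in suspensor, with 20 and 65 reads. Phvul.002G007600 on chromosome 2 had 29.0 and 47.0 RPKM in embryo proper and 0.297 and 0.489 RPKM in suspensor, with 62 and 99 reads. Both genes were read in both suspensor libraries beyond the 3 reads that a count of 0 allows.

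**Figure D2:**
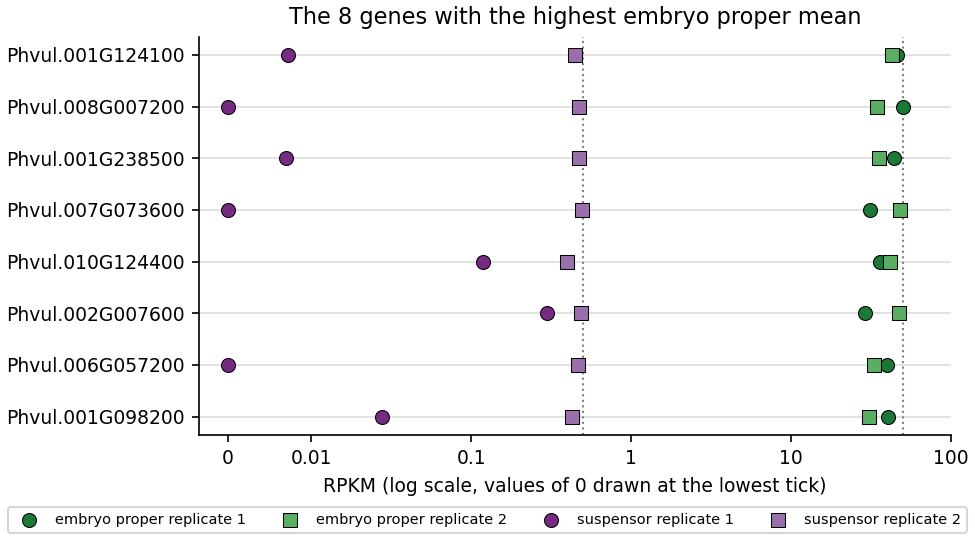
RPKM in each library (log scale, values of 0 drawn at the lowest tick) of the 8 genes with the highest embryo proper mean; circles are replicate 1, squares replicate 2, green embryo proper and purple suspensor, with dotted lines at 0.5 and 50 RPKM. Suspensor replicate 2 lies between 0.398 and 0.495 RPKM in all 8, while suspensor replicate 1 ranges from 0 to 0.297 RPKM.

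The level in suspensor replicate 2 was a small share of that in embryo proper. Expressed as a percentage of the summed RPKM of both embryo proper libraries, the level in suspensor replicate 2 was 0.672% at the median gene, between quartiles of 0.576% and 0.824%. It lay between 0.4% and 1% in 207 of the 241 genes, below 0.4% in 8 and at 1% or more in 26, with a range from 0.245% to 2.84%. Across the 241 genes, Pearson's r between log2 of suspensor replicate 2 and log2 of the embryo proper mean was 0.79 and Spearman's rho 0.81. These correlations run across genes of the same libraries, and the rule limited both measures, so they describe the set and support nothing. The limit of 0.5 RPKM also caps the share, and more so at a higher level. The median share was 0.672%, 0.728%, 0.655% and 0.593% at embryo proper means of 5 to 10, 10 to 20, 20 to 30 and 30 to 50 RPKM. In suspensor replicate 1, Spearman's rho with the embryo proper mean was −0.09.

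The share was similar whether or not a gene was read in suspensor replicate 1. The 127 genes with no read there had a median share of 0.644% in suspensor replicate 2, and the 114 genes listed there had 0.723%. The level in suspensor replicate 2 was also set against each embryo proper library, in genes where those libraries differed. In the 38 genes at least 2-fold higher in embryo proper replicate 1, suspensor replicate 2 held a median of 0.856% of that library's level, 2.46% of the other's and 0.627% of the sum. In the 35 genes at least 2-fold higher in embryo proper replicate 2 the corresponding values were 1.00%, 2.54% and 0.730%. The median share of the sum was thus 0.627% and 0.730% in these groups, and that of the higher library 0.856% and 1.00%. The rule limited all these levels, and the split does not tell the sum from the higher library. How much of the reads in suspensor replicate 2 came from suspensor cells was not tested.

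Genes outside the set also had a lowest share in suspensor replicate 2 that was above 0. The other 5582 genes of the level had failed the limit of 0.5 RPKM in suspensor, which bears on their shares. Among them the lowest share in suspensor replicate 2 was 0.361% and the median 38.0%, and 0 had no read in that library. On the 1554 genes at 50 RPKM or more in both embryo proper libraries the rule put no limit in suspensor. Of these, 49 were under 0.5 RPKM in suspensor replicate 1, 27 of them with no read. None was under 0.5 RPKM in suspensor replicate 2, where the lowest value was 0.815 RPKM and the lowest share 0.425%. A limit of 0.5 RPKM in both suspensor libraries therefore admitted no gene at 50 RPKM or more in both embryo proper libraries, and suspensor replicate 2 alone set this bound.

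**Figure D3:**
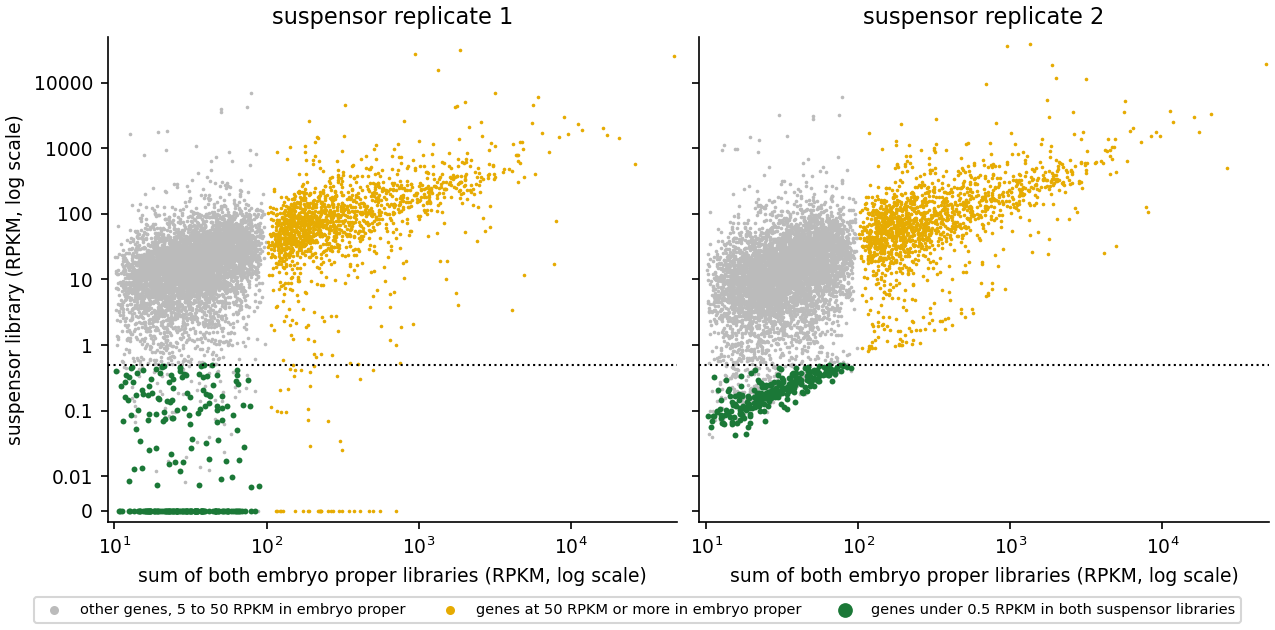
RPKM in suspensor replicate 1 (left) and replicate 2 (right) against the sum of both embryo proper libraries, on log scales with values of 0 at the lowest tick; green points are the 241 genes, grey points the other genes at 5 to 50 RPKM in embryo proper, yellow points genes at 50 RPKM or more, and the dotted line is 0.5 RPKM. In replicate 2 the points have a lower edge that rises with the embryo proper level and none lies at 0, while in replicate 1 the 241 genes scatter from 0 to 0.496 RPKM.

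The same limit acted unevenly along the range of levels. At a mean of 5 to 10 RPKM in embryo proper, 69 of 1197 genes of the level (5.76%) were under 0.5 RPKM in both suspensor libraries. At 10 to 20 RPKM they were 109 of 2489 (4.38%), at 20 to 30 RPKM 39 of 1355 (2.88%), and at 30 to 50 RPKM 24 of 782 (3.07%). The median in suspensor replicate 2 rose over these classes from 0.102 to 0.210, 0.331 and 0.398 RPKM. The share of the 241 genes with no read in suspensor replicate 1 went in no single direction, at 46.4%, 58.7%, 51.3% and 45.8%.

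**Figure D4:**
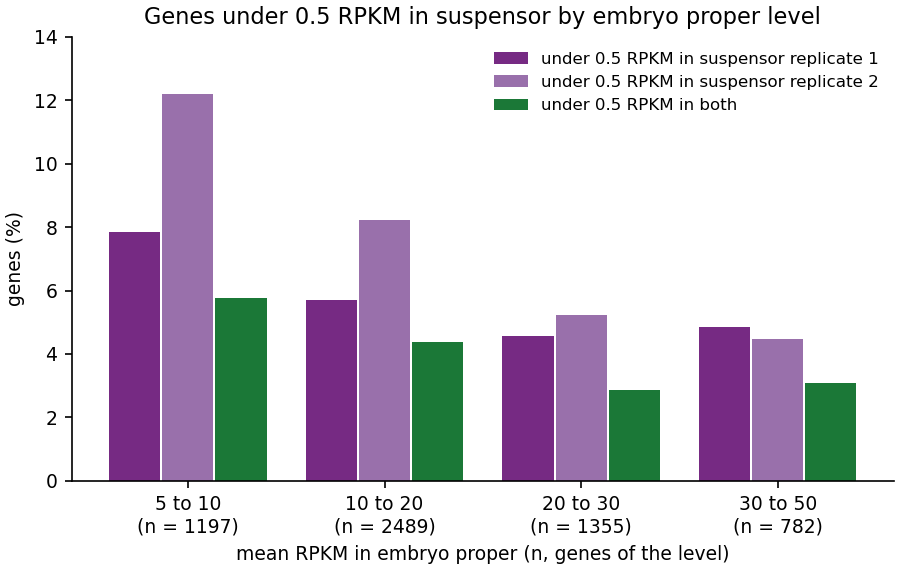
Percentage of genes at 5 to 50 RPKM in both embryo proper libraries (bars) that were under 0.5 RPKM in suspensor replicate 1, in replicate 2 or in both, by mean RPKM in embryo proper. The bar for replicate 2 falls from 12.2% to 4.48% across the classes, that for replicate 1 lies between 4.58% and 7.85%, and that for both between 2.88% and 5.76%.

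The suspensor libraries chose partly different genes. Of the 5823 genes of the level, 336 were under 0.5 RPKM in suspensor replicate 1 and 457 in replicate 2. The 241 genes under the limit in both were 71.7% of the first and 52.7% of the second. The 95 genes under the limit in replicate 1 only had a median of 1.58 and a highest value of 34.7 RPKM in replicate 2, and 28 of them had no read in replicate 1. The 216 genes under the limit in replicate 2 only had a median of 2.29 and a highest value of 30.7 RPKM in replicate 1. Some genes near 0 in one suspensor library were thus at the level of embryo proper in the other.

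Reads in suspensor replicate 1 were few for most of the 241 genes but not for all. Besides the 127 genes with no read, 23 had 1 to 3 reads and 91 had 4 or more, up to 137. For the genes with no read, 3 reads would have been between 0.0133 and 0.528 RPKM, depending on length, with a median of 0.0329 RPKM. Their embryo proper means were at least 27.5-fold to at least 1922-fold higher than this limit, with a median of at least 432-fold. In the 91 genes with 4 or more reads the embryo proper mean was between 12.9-fold and 631-fold the level in suspensor replicate 1, with a median of 75.9-fold. The genes with no read had a median recovered length of 1606 bp, against 1968 bp in those that were read. A recovered length is more likely to be too short when fewer libraries list the gene. How much of the difference came from this was not tested. Against suspensor replicate 2 the ratio for the 241 genes lay between 17.6 and 204, with a median of 74.4. Whether libraries were sequenced together is not given in the sources used here, and the origin of the reads in suspensor replicate 2 was not tested. Ratios to that library therefore compare libraries and need not measure the level in suspensor cells.

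The 4 genes with the highest mean in suspensor were read in both suspensor libraries. Phvul.006G172900 on chromosome 6 had 0.496 and 0.440 RPKM in suspensor, from 137 and 118 reads, and 27.0 and 11.6 RPKM in embryo proper. Phvul.008G077000 had 0.476 and 0.419 RPKM in suspensor, from 96 and 82 reads, and 9.26 and 11.8 RPKM in embryo proper. Its level in suspensor replicate 2 was 1.99% of the embryo proper sum, well above the median share, and its embryo proper mean was only 22.1-fold and 25.1-fold the suspensor replicates. Phvul.002G170100 had 0.423 and 0.464 RPKM in suspensor against 45.2 and 19.1 RPKM in embryo proper, and Phvul.006G115900 had 0.351 and 0.465 RPKM against 16.1 and 30.9 RPKM. In these 4 genes the suspensor libraries differed by at most 1.32-fold.

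Within embryo proper the replicates were apart more frequently for the 241 genes than for others of their level, a difference that was not tested. The libraries were within 1.2-fold of each other in 56 genes (23.2%) and at least 2-fold apart in 73 (30.3%), of which 12 (4.98%) were at least 4-fold apart. Among the other genes of the level these shares were 25.5%, 24.99% and 3.01%. The median difference, replicate 2 minus replicate 1 on the log2(RPKM + 1) scale, was −0.01, with 123 genes higher in replicate 1 and 118 higher in replicate 2. Pearson's r of log2(RPKM + 1) between the libraries was 0.40 over the 241 genes and 0.47 over the others, both held down by the limits of the rule. These are descriptions of 2 libraries, with no test.

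The genes with the closest and the most distant embryo proper libraries show this range. Phvul.002G136400 on chromosome 2 had 21.0 and 20.9 RPKM in embryo proper and 0.176 and 0.262 RPKM in suspensor. Phvul.007G155500 had 12.7 and 12.7 RPKM in embryo proper, no read in suspensor replicate 1 and 7 reads in replicate 2. At the other end, Phvul.002G201700 had 5.73 and 48.0 RPKM in embryo proper, 8.37-fold apart, with 1 and 23 reads in suspensor. Phvul.009G134200 was high in replicate 1 instead, at 37.8 RPKM against 6.44 RPKM. That gene rested on a recovered length of 165 bp and on 380 and 78 reads in embryo proper.

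**Figure D5:**
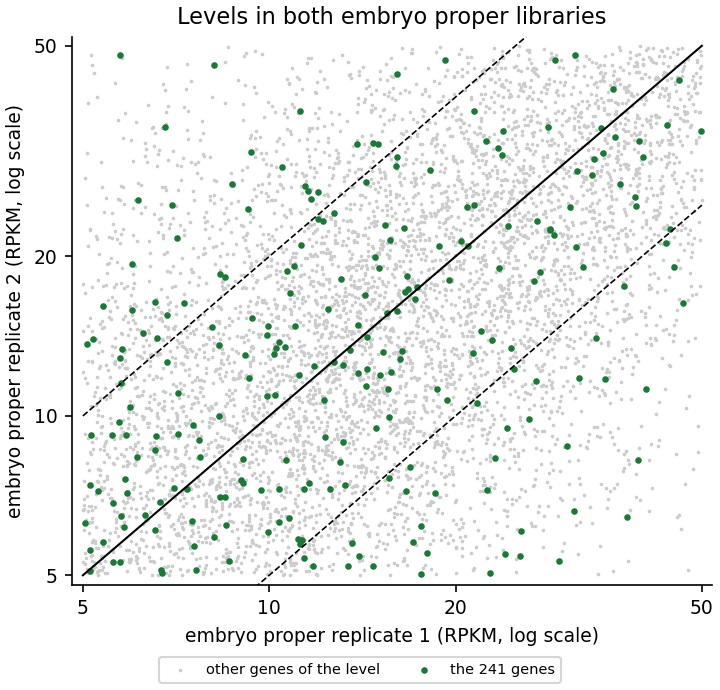
RPKM in embryo proper replicate 2 against replicate 1 (log scales) for the 241 genes (green) and the other 5582 genes at 5 to 50 RPKM in both libraries (grey); the solid line marks equal levels and the dashed lines a 2-fold difference. Of the 241 genes, 168 lie between the dashed lines and 73 on or outside them, 38 toward replicate 1 and 35 toward replicate 2.

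The limits of the rule cut through a continuous range. Phvul.011G071500 was just inside the lower limit in embryo proper, at 5.03 and 6.29 RPKM, and Phvul.002G157600 just outside, at 4.96 and 11.8 RPKM. Phvul.009G074300 had 50.6 and 21.7 RPKM in embryo proper, no read in suspensor replicate 1 and 0.453 RPKM in replicate 2, and was left out by the upper limit only. Phvul.003G066800 had 28.6 and 9.15 RPKM in embryo proper, no read in suspensor replicate 1 and 0.501 RPKM in replicate 2, and was left out by the limit in suspensor only. Each gene left out met the other limits.

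In length and position the 241 genes resembled others of their level. The median recovered length was 1677 bp, between quartiles of 1248 and 2438 bp, against 1737 bp, 1224 and 2463 bp in the other genes. The chromosome, read from the gene ID, held between 14 genes (chromosomes 6, 10 and 11) and 33 genes (chromosome 3). As a share of the genes of the level on a chromosome, this was between 2.83% on chromosome 6 and 4.93% on chromosome 3, around 4.14% over all. All 11 chromosomes were represented. No test was made of these shares.

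In 6 places 2 of the 241 genes followed each other in the order of listed IDs, which took in 12 genes. A gene of the set was thus followed by another in 2.49% of cases, while the set made up 1.15% of listed genes. This difference rests on the 6 pairs and was not tested, and genes not listed may lie between neighbours. Phvul.004G034600 and Phvul.004G034700 on chromosome 4 had means of 30.2 and 26.1 RPKM in embryo proper. The first had 0.0845 and 0.368 RPKM in suspensor, and the second 0 and 0.301 RPKM. Their recovered lengths were 1874 and 1808 bp. Phvul.009G137700 and Phvul.009G137800 on chromosome 9, of 1093 and 1110 bp, were high in opposite embryo proper libraries: the first had 23.1 and 8.34 RPKM and the second 8.71 and 27.4 RPKM. The longer gene was less than 1.2 times as long as the shorter in 3 of the 6 pairs. How reads that match several genes were counted is not given in the sources used here, so values of near-identical neighbours would be uncertain.

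The 1 comparison between the regions was fitted with limma on log2(RPKM + 1) across 15169 genes that reached 1 RPKM in at least 2 libraries. All 241 genes passed that filter, as the rule made certain, through their level in embryo proper. Of all tested genes, 5.55% were called higher in embryo proper at a Benjamini-Hochberg adjusted p under 0.05, and 230 of the 241 genes were among them. The 11 that were not called had adjusted p from 0.05002 to 0.0598. Both embryo proper libraries were above both suspensor libraries in all 241 genes by the rule, and in 28.1% of the tested genes. The rule used this contrast, so nothing is read from these counts. The median log2 fold change, suspensor minus embryo proper, was −3.65, with a median standard error of 0.76, against a median of 0.00 over all tested genes. This scale understates the ratio of such genes, because the suspensor values lie below the pseudocount of 1. Without embryo proper replicate 1 the count was 134, against a background of 2.59%, and without embryo proper replicate 2 it was 212, against 4.07%. The lone library was then assumed to vary like those of the other region. With either suspensor library left out limma called 0 of the 241 genes and 0% of all tested genes.

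The converse rule, 5 to 50 RPKM in both suspensor libraries and under 0.5 RPKM in both embryo proper libraries, found 132 genes. Of these, 4 had no read in embryo proper replicate 1 and 4 had none in replicate 2. At the median, embryo proper replicates 1 and 2 held 0.722% and 0.586% of what suspensor replicate 2 held. These shares are of a single library and not of a sum, so they cannot be set directly against the share given above. Suspensor replicate 1 stood apart from the other 3 libraries in how many of these moderate genes of the opposite region had no read at all, with 127 of 241. Over all genes that library did not stand apart: it listed 18515, and the libraries listed 18120 to 18867. The difference between libraries in the moderate genes was not tested.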

How the data were processed

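The authors deposited 1 table per library with gene IDs and RPKM. Per the labels' protocols, 5 ng of total RNA went into a Nugen Ovation amplification and libraries had 10 PCR cycles. Without molecular identifiers, reads are not independent molecules. The submitters' processing notes name Bowtie 0.12.7 and bedtools. For the genome build, annotation, strand use and reads with several matches, the sources used here give nothing.

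Tables were joined by gene ID, and a gene not listed was set to 0. Library totals were the largest numbers that made length over reads whole for most of the 300 lowest values. The shortest length from 30 to 20000 bp that made reads whole in every library was used, which succeeded for 100% of genes within a tolerance of 1e-05 reads plus the rounding of the files; the largest deviation from a whole number was 0.000441 reads. In 1 kb, 3 reads, the limit that a count of 0 allows, are 0.0409 to 0.0544 RPKM.

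The regions were compared in R 4.3.3 with limma 3.58.1 on log2(RPKM + 1), using a mean-variance trend, the authors' scaling and no replicate block, since the labels do not say that a number marks shared material. Both steps were tested on simulated data. Genes were named by rules: the 8 highest means in embryo proper, the 4 highest in suspensor, the closest and most distant embryo proper replicates, genes at each limit, and neighbours in ID order. A rule for genes with no read in both suspensor libraries found 0. Lists by product and cell type markers could not be used without product names. Members and rules were chosen with earlier results of these data known. P-values rest on the spread between 2 libraries per region, part of which may be technical.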

Additional observations from a re-analysis of the deposited data

How the results depend on the processing

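The number of genes followed the limits. The 241 genes became 130 with a limit of 0.25 RPKM in suspensor, 118 at 10 to 50 RPKM and 441 at 2 to 50 RPKM in embryo proper. They ranged from 336 to 457 when 1 library was left out. The genes with no read in suspensor replicate 1, 127 by the rule, became 69 at 10 to 50 RPKM and 223 at 2 to 50 RPKM, and lay between 155 and 239 when 1 library was left out. Those with no read in suspensor replicate 2, 0 by the rule, became 3 at 2 to 50 RPKM and lay between 0 and 7 when 1 library was left out.

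The 230 of 241 genes called became 124 with a pseudocount of 5 (570 in embryo proper over all tested genes), 135 with a filter on a mean of 5 RPKM (which tested 174 of them and called 794 in all in that direction), 61 with limma-voom on recovered reads, added after seeing the data, and 0 with no filter. They lay between 0 and 212 when 1 library was left out. Over all tested genes, the 1523 calls (842 higher in embryo proper, 681 higher in suspensor) became 827 with limma-voom (430 and 397) and 0 in limma with no filter (0 and 0), where 4162 genes had an unadjusted p under 0.05. When 1 library was left out the counts lay between 0 and 1009 (0 to 618 and 0 to 391). Without suspensor replicate 1 or 2 limma called 0, and 3189 and 2947 had an unadjusted p under 0.05. The cause was not tested. The median log2 fold change of −3.65 became −6.03, −4.44 and −1.82 with pseudocounts of 0.1, 0.5 and 5, and −7.92 with limma-voom, and lay between −3.74 and −3.53 when 1 library was left out. For the 33 genes chosen by the naming rules, 460 fold changes were refitted; 140 lost the call, 6 gained it and 0 changed direction, which the choice of genes fixes.

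With the replicate block 1902 genes were called (1035 and 867), 239 of the 241 among them. Deviations of same-numbered libraries had a correlation across genes of 0.07, which with 2 libraries per region does not show that the numbers pair them.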
